A study of Mus musculus with 12 samples.

Results

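The genes described here are 50 mouse genes that carry cells through DNA replication and mitosis, 21 of them acting in replication or entry into S phase and 29 in mitosis. They were found on the arrays by the transcript accession of each probe. A probe was found for 49 of the 50, the exception being Gins1, a subunit of the replicative helicase, and the 49 were among 23210 genes or transcripts tested. RNA came from the colon of male C57BL/6J mice of 3 genotypes, measured on 12 single-colour Agilent arrays with 2 arrays in each of 6 groups. ATF6aKO mice lack Atf6 and ATF6bKO mice lack Atf6b, genes for membrane proteins of the endoplasmic reticulum that release transcription factors under protein-folding stress. The other genotype was wild type (WT). Mice of the DSS groups had drunk 3% dextran sulfate sodium, which injures the colonic epithelium, for 3 days, and the others were untreated (UT). The labels give neither the age of the mice nor the tissues in which the genes were deleted.

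For the 4 WT samples the titles and the treatment fields contradict each other, which they do not in the 8 knockout samples, so the WT groups were formed by title and are called WT titled DSS and WT titled UT. The sign of their difference was not read as an effect of DSS. No label states whether the 2 arrays in a group stand for different animals, so a p-value here reflects only how far these samples spread, possibly for technical reasons. Each genotype lay on a slide of its own, so a comparison between genotypes cannot be told apart from one between slides, while the DSS change of each knockout lies within a slide. As a check of the labels, ATF6aKO colon had less Atf6 than WT colon (log2 -3.92, SE 0.16, limma adjusted p = 4.08e-05) and ATF6bKO colon had less Atf6b (log2 -6.09, SE 0.69, adjusted p = 0.00186), and 1 of the 4 ATF6bKO arrays had its signal well above background. Whether the probes of Atf6 and Atf6b lie in the deleted parts is not stated in the labels. Between 65.5% and 76.3% of probes were well above background on an array, and the small number of arrays limits the precision of every value.

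A cell that is about to divide first loads the MCM helicase onto its DNA with Cdc6 and Cdt1, then copies the DNA with polymerases, sliding clamp and nucleotide-making enzymes, and then condenses and separates its chromosomes with cyclin-dependent kinases, kinetochore proteins and spindle motors. Transcription of the replication genes is known to be driven by E2F factors at the start of S phase, and that of the mitotic genes by a B-MYB, MuvB and FOXM1 complex at promoters with a CHR element, often together with the CCAAT-binding factor NF-Y. In the colon, dividing cells lie in the lower part of the crypts, where Wnt signals maintain stem and transit-amplifying cells.

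RefSeq promoters of assembly GRCm38.p6, running from 250 bases before to 50 after the first listed start of a gene, were matched for 42 of the 50 genes, 18 of replication and 24 of mitosis. Aurkb, Ccna2, Foxm1, Gins1, Gins2, Kif20a, Mcm4 and Tpx2 were not in the table. An E2F core on either strand, written TTGGCGC, or with other middle letters TTCGCGC, or else TTCCCGC, was found in 11 of the 18 replication promoters (61.1%) and in 3 of the 24 mitosis promoters (12.5%), against 8.21% of all 27025 promoters in the table. A CHR element (TTTGAA, either strand) was found in 2 of the 18 replication promoters (11.1%) and in 18 of the 24 mitosis promoters (75%), against 18.1% of all. A CCAAT box, either strand, was found in 10 replication promoters (55.6%) and 19 mitosis promoters (79.2%), against 37.9% of all, and an E2F match overlapped a CCAAT match in 3 promoters of these genes. Many matches lay after the start: an E2F match began before it in 7 replication promoters (38.9%, against 6.93% of all) and a CHR match in 9 mitosis promoters (37.5%, against 16.4% of all). A match is a description of the sequence, not a shown binding site.

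**Figure D1:**
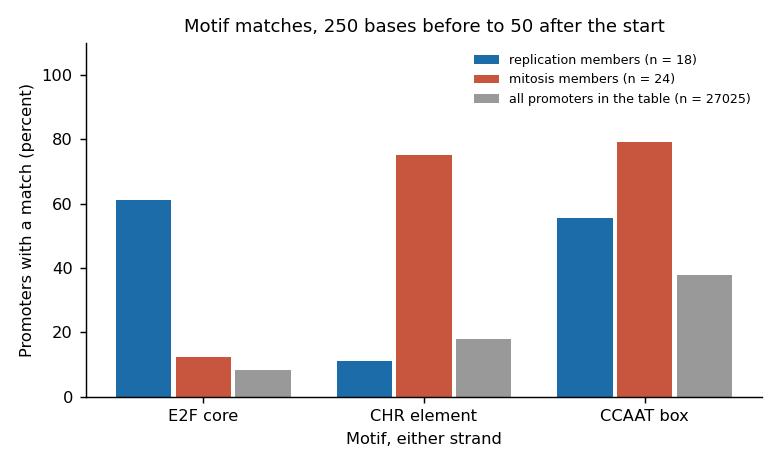
Percent of promoters with a match to an E2F core, a CHR element or a CCAAT box on either strand, for 18 replication genes, 24 mitosis genes and all 27025 promoters of the table. The E2F bar is tallest for replication genes (61.1%) and the CHR bar for mitosis genes (75%).

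The 120 bases before the start are shown for 3 replication genes with E2F and CCAAT matches and 4 mitosis genes with CHR and CCAAT matches, since E2F and CHR matches differed most in share between the classes. The Cdk1 promoter also has E2F matches at -178 and -130 from the start, outside the bases shown. Each is written 5′ to 3′ on the strand of its gene, with all matches to these motifs in capitals, and a match on the opposite strand appears as its complement, which reads ATTGG for a CCAAT box and TTCAAA for a CHR element.
Mcm6 promoter, chr1:128359706-128359825, minus strand: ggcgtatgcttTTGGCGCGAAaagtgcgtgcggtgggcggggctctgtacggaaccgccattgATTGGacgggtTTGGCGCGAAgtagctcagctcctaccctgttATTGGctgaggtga
Rrm1 promoter, chr7:102441575-102441694, plus strand: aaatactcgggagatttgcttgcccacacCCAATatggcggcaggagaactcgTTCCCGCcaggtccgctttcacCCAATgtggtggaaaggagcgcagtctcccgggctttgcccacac
Prim1 promoter, chr10:128015095-128015214, plus strand: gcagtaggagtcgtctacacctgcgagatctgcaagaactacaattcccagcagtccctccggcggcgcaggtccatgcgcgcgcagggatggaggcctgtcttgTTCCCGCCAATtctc
Cdc20 promoter, chr4:118437344-118437463, minus strand: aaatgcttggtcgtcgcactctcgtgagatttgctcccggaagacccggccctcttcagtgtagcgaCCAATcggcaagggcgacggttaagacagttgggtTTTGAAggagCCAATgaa
Ube2c promoter, chr2:164769809-164769928, plus strand: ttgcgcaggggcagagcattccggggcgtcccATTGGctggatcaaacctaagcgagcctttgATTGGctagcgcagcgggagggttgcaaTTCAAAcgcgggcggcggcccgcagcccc
Kif11 promoter, chr19:37376262-37376381, plus strand: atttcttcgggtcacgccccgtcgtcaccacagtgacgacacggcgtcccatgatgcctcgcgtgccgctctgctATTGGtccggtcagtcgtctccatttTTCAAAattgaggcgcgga
Cdk1 promoter, chr10:69352913-69353032, minus strand: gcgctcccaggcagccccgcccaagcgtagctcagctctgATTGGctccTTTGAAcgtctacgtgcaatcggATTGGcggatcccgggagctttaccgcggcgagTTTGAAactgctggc

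Over both knockouts, DSS was accompanied by lower transcripts across the whole division programme. Of the 49 genes, 48 fell and 1 rose, by limma's test on the 8 knockout arrays (genotype as covariate) with Benjamini-Hochberg adjustment over all 23210 genes (threshold 0.05). The background was 15.8% of all genes that fell and 13.3% that rose. The median change was -1.62 on the log2 scale, a 3.07-fold lower level, against -0.01 over all genes. The 20 replication genes fell with a median of -1.15 (2.21-fold lower), and the 29 mitosis genes, of which 28 fell, had a median of -1.80 (3.48-fold lower). All 4 DSS arrays lay below all 4 untreated arrays for 46 of the 49 genes, against 14.7% of all genes, and the genes whose arrays overlapped were Fen1, Ndc80 and Bub1. In bulk tissue, fewer cells of a type and less RNA per cell cannot be told apart. With normexp background correction, 3420 genes fell and 4898 rose in all, against 3676 and 3076 here, and the median of these genes was -1.04.

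**Figure D2:**
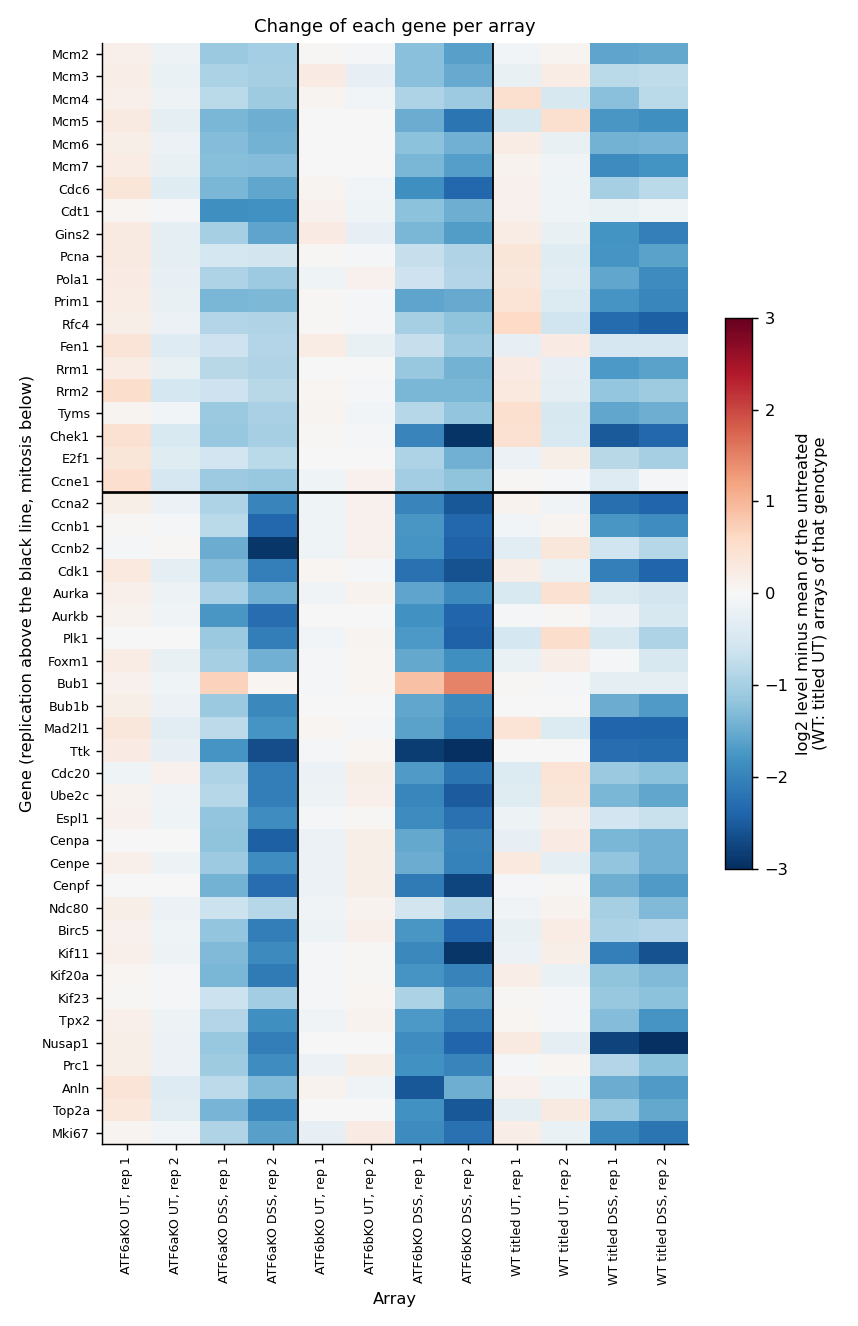
Log2 level of each of the 49 genes (rows, replication above the black line and mitosis below) on each of the 12 arrays (columns) minus the mean of the untreated arrays of that genotype (WT: titled UT). The DSS columns of both knockouts are lower for every gene but Bub1, by a median of 1.37 log2 units in ATF6aKO and 1.77 in ATF6bKO; the scale is cut at 3 log2 units either way.

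Among the licensing and helicase genes all 9 measured fell over both knockouts, with a median of -1.40. Levels are given as the log2 processed signal relative to the 75th percentile of the same array, which stands at 0. Mcm6, a subunit of the MCM helicase that opens the DNA, had levels of 3.89 and 3.54 in untreated ATF6aKO colon and of 2.41 and 2.29 after DSS, and of 3.56 and 3.54 against 2.32 and 2.12 in ATF6bKO. The 4 DSS arrays were all more than a log2 unit below the lowest untreated one, and the change was -1.35 (SE 0.11, adjusted p = 0.00107). Mcm7, another helicase subunit, had 2.75 and 2.32 against 1.25 and 1.23 in ATF6aKO, and 2.52 and 2.53 against 1.15 and 0.88 in ATF6bKO. Its groups did not overlap either, and it fell by 1.40 (SE 0.13, adjusted p = 0.00131). Mcm2, Mcm3, Mcm4 and Mcm5 fell by 0.97 (Mcm4) to 1.63 (Mcm5). The loading factors Cdc6 and Cdt1 fell by 1.78 (SE 0.22) and 1.58 (SE 0.14), and Gins2, a partner of the helicase, by 1.41 (SE 0.21).

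The 5 genes of the fork and DNA synthesis fell less, with a median of -0.88. Pcna, the sliding clamp that tethers DNA polymerases, had 4.02 and 3.50 in untreated ATF6aKO colon and 3.23 and 3.22 after DSS. In ATF6bKO the values were 3.72 and 3.64 against 3.00 and 2.78. Its groups were separate but close, and its fall of 0.66 (SE 0.14, adjusted p = 0.0139) was the smallest of the 48. Rfc4, a subunit of the factor that loads this clamp, had 1.55 and 1.22 against 0.50 and 0.49 in ATF6aKO, and 1.45 and 1.37 against 0.42 and 0.21 in ATF6bKO, a fall of 0.99 (SE 0.11, adjusted p = 0.0022). Prim1, the catalytic subunit of primase, fell further, by 1.46 (SE 0.12), while the polymerase subunit Pola1 fell by 0.88 (SE 0.15) and the flap endonuclease Fen1 by 0.83 (SE 0.21). Fen1 did not pass the threshold in 5 of the 8 fits that left out an array (adjusted p of 0.0534 to 0.07).

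All 3 nucleotide supply genes fell by about the same amount. Tyms, which makes thymidylate, had 2.88 and 2.71 in untreated ATF6aKO colon and 1.68 and 1.83 after DSS, and 2.60 and 2.44 against 1.67 and 1.34 in ATF6bKO. It fell by 1.02 (SE 0.11, adjusted p = 0.00186). Rrm1, the large subunit of ribonucleotide reductase, had 1.81 and 1.36 against 0.75 and 0.68 in ATF6aKO, and 1.58 and 1.61 against 0.47 and 0.18 in ATF6bKO. It fell by 1.07 (SE 0.14, adjusted p = 0.0034), and the small subunit Rrm2 by 1.05 (SE 0.25, adjusted p = 0.0207). Rrm2 missed the threshold in 4 fits that left out an array, with an adjusted p of up to 0.0601.

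The genes of S phase entry and its checkpoint fell too, with larger spread between arrays. Ccne1, cyclin E1, which drives cells into S phase, had 1.08 and 0.08 in untreated ATF6aKO colon against -0.50 and -0.56 after DSS, and 0.43 and 0.67 against -0.50 and -0.65 in ATF6bKO. It fell by 1.12 (SE 0.21, adjusted p = 0.00932), with the 2 untreated ATF6aKO arrays a whole log2 unit apart. E2f1, a transcription factor of S phase entry, had -2.32 and -3.06 against -3.27 and -3.51, and -2.64 and -2.64 against -3.56 and -4.07 in ATF6bKO, and fell by 0.94 (SE 0.21, adjusted p = 0.0176). E2f1 did not pass with normexp (-0.29, adjusted p = 0.0574), without ATF6bKO UT replicate 1 (adjusted p = 0.0501) or without ATF6aKO UT replicate 1 (adjusted p = 0.0516). Chek1, the kinase of the replication checkpoint, fell by 1.76 (SE 0.37, adjusted p = 0.0141), and its probe was above background on 11 of the 12 arrays.

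The cyclins, mitotic kinases and Foxm1 fell, all 8 of them, with a median of -1.84. This was the lowest of any role, but close to -1.79 for centromere and kinetochore genes and for genes of mitotic chromosomes. In each knockout alone another role had the lowest median. Ccnb2, cyclin B2, which activates Cdk1 for entry into mitosis, had 2.82 and 2.90 in untreated ATF6aKO colon against 1.37 and -0.06 after DSS, and 2.32 and 2.58 against 0.67 and 0.03 in ATF6bKO. The DSS arrays were far below the untreated ones but 1.43 apart in ATF6aKO, and the change was -2.15 (SE 0.31, adjusted p = 0.00406). Ccna2, cyclin A2, which acts in S phase and early mitosis, had 2.14 and 1.78 against 1.03 and -0.01, and 1.85 and 2.13 against 0.02 and -0.55, a fall of 1.85 (SE 0.29, adjusted p = 0.00537). Aurkb, the kinase of the chromosomal passenger complex, fell by 2.05 (SE 0.17), Cdk1 itself by 2.04 (SE 0.25), the kinase Plk1 by 1.83 (SE 0.26) and the spindle pole kinase Aurka by 1.47 (SE 0.18). Foxm1, a transcription factor of mitotic genes, fell by 1.45 (SE 0.18).

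Of the 7 genes of the spindle checkpoint and anaphase, 6 fell and Bub1 rose. Cdc20, which activates the anaphase-promoting complex, had 2.55 and 2.82 in untreated ATF6aKO colon against 1.77 and 0.61 after DSS, and 2.26 and 2.60 against 0.73 and 0.24 in ATF6bKO, a fall of 1.72 (SE 0.27, adjusted p = 0.00559). Ube2c, the ubiquitin-conjugating enzyme of that complex, had 2.46 and 2.27 against 1.51 and 0.28, and 2.02 and 2.33 against 0.22 and -0.33, a fall of 1.85 (SE 0.31, adjusted p = 0.00651). In both genes the first ATF6aKO DSS array lay over a log2 unit above the second. Ttk, a kinase of the checkpoint, passed the test (-2.74, SE 0.33, adjusted p = 0.00247), but its probe was above background on only 1 of the 2 ATF6aKO DSS arrays and on 0 of the 2 ATF6bKO ones, so its size has no rank. In ATF6bKO the fall is a bound of at least 3.05-fold (adjusted p = 0.00169). The bound takes, on each dim array, the lowest signal among probes well above background. With normexp Ttk did not pass (-0.23, adjusted p = 0.075). The checkpoint genes Bub1b and Mad2l1 fell by 1.63 and 1.55, and Espl1, the protease that releases sister chromatids, by 1.80 (SE 0.20).

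At the centromere and kinetochore all 5 genes fell. Birc5, or survivin, a partner of Aurkb, had 4.14 and 3.89 in untreated ATF6aKO colon against 2.82 and 1.95 after DSS, and 3.71 and 4.01 against 2.11 and 1.47 in ATF6bKO. It fell by 1.85 (SE 0.24, adjusted p = 0.00312). Cenpe, a motor that moves chromosomes to the spindle equator, had 1.65 and 1.36 against 0.42 and -0.36, and 1.63 and 1.97 against 0.30 and -0.22, a fall of 1.62 (SE 0.22, adjusted p = 0.00323). Cenpf fell by 2.15 and the centromeric histone Cenpa by 1.79, whereas Ndc80, which couples kinetochores to microtubules, fell by 0.73 (SE 0.13, adjusted p = 0.00793), with overlapping arrays over the 2 genotypes.

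The 7 spindle motor and cytokinesis genes fell as well, with a median of -1.67. Prc1, which bundles the microtubules of the central spindle, had 2.15 and 1.82 in untreated ATF6aKO colon against 0.93 and 0.12 after DSS, and 1.92 and 2.28 against 0.29 and 0.13 in ATF6bKO, a fall of 1.67 (SE 0.21, adjusted p = 0.00275). Kif20a, a kinesin of the same structure, had 0.81 and 0.71 against -0.62 and -1.37, and 0.40 and 0.49 against -1.32 and -1.56, a fall of 1.82 (SE 0.17, adjusted p = 0.00138). Kif11, the kinesin that separates the spindle poles, fell by 2.02, and Kif23, a kinesin of cytokinesis, by 1.07. Of the proteins of mitotic chromosomes, Mki67, the proliferation marker Ki-67, had 3.28 and 3.11 against 2.29 and 1.57, and 3.37 and 3.88 against 1.74 and 1.38. It fell by 1.66 (SE 0.25, adjusted p = 0.00445), and topoisomerase Top2a by 1.92 (SE 0.24).

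Bub1, a checkpoint kinase, was the exception only by the probe that represented it. Genes with several probes were represented by the one with the highest mean level, which for Bub1 was A_52_P259126. That probe had -0.58 and -0.82 in untreated ATF6aKO colon and -0.01 and -0.64 after DSS, and -1.35 and -1.23 against -0.40 and 0.20 in ATF6bKO, a change of 0.78 (SE 0.24, adjusted p = 0.0489). In ATF6bKO both DSS arrays lay above both untreated ones, and in ATF6aKO the groups overlapped. The other probe, A_51_P123405, had -1.03 and -1.55 against -2.70 and -3.49, and -1.25 and -0.89 against -3.17 and -3.79, and fell by 2.11 (SE 0.26, adjusted p = 0.0026 over all probes). Each of its DSS arrays lay below both untreated arrays of the same genotype. The rising probe carried a Bub1 transcript accession in the later version of the array design and a transcript cluster identifier in the earlier one, while the falling probe carried the same Bub1 accession in both. With the mean of the probes Bub1 was lower (log2 -0.66, adjusted p = 0.0305), and the rise did not pass in 7 of the 8 fits that left out an array.

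Anln, which encodes the cytokinesis scaffold anillin, was the other gene whose probes disagreed over both knockouts, in call but not in direction. Probe A_52_P512955, which represented it, had -3.19 and -3.98 in untreated ATF6aKO colon against -4.37 and -4.92 after DSS, and -3.63 and -3.86 against -6.28 and -5.22 in ATF6bKO. It fell by 1.53 (SE 0.33, adjusted p = 0.0161), and was above background on 0 of the 2 ATF6bKO DSS arrays, where the fall is a bound of at least 3.46-fold (adjusted p = 0.011). Probe A_51_P313896 had a change of -1.0 (SE 0.34, adjusted p = 0.0682). With normexp Anln did not pass (-0.11, adjusted p = 0.417). Of the 15 genes with more than 1 named probe, 14 had more than 1 that passed the background filter, and Bub1 and Anln were the only 2 of these whose probes differed over both knockouts in sign, in call or by over 1 log2 unit. With each knockout on its own, only some probes passed for 6 genes in ATF6aKO (Bub1, Ccnb1, Cenpe, Cenpf, Kif11 and Top2a) and for 3 in ATF6bKO (Anln, Ccne1 and Cenpf), and between the WT groups for 6 (Anln, Bub1, Cdc6, Cenpe, Cenpf and E2f1).

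**Figure D3:**
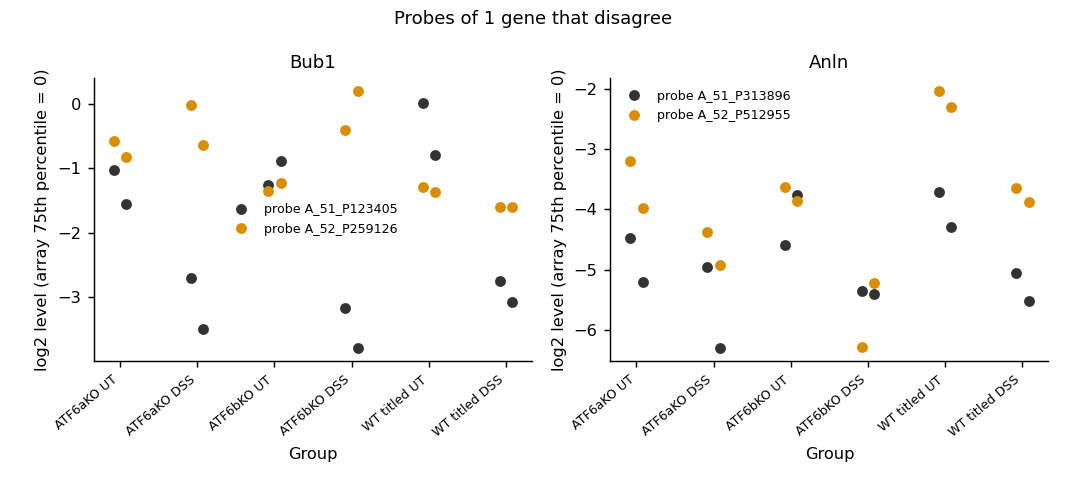
Log2 level (array 75th percentile at 0) on each of the 2 arrays of each group for the 2 probes of Bub1 (left) and of Anln (right). For Bub1 the A_51_P123405 points drop to between -2.70 and -3.79 with DSS in the knockouts while the A_52_P259126 points do not drop; both Anln probes have lower DSS means.

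When each knockout was tested on its own within the fit of all 12 arrays, the same direction held with fewer calls in ATF6aKO. In ATF6aKO 28 of the 49 genes fell and 0 rose, against 3.48% and 2.90% of all genes, with a median change of -1.37. In ATF6bKO 42 fell and 1, Bub1, rose, against 7.22% and 5.71% of all genes, with a median of -1.77. All 28 genes that fell in ATF6aKO were among the 42, and 2.52% of all genes fell in both. Among the genes that did not pass in ATF6aKO were the nucleotide supply and S phase entry genes, of which 0 of 6 passed there and 6 of 6 in ATF6bKO. For example, Tyms was at -1.04 (SE 0.28, adjusted p = 0.0633) in ATF6aKO and -1.01 (SE 0.28, adjusted p = 0.0483) in ATF6bKO, nearly the same change on opposite sides of the threshold. Ccnb1, Cdc20, Plk1 and Ube2c, at -1.47 to -1.59 in ATF6aKO, also missed the threshold there, with adjusted p of 0.059 to 0.0654. Another Ccnb1 probe, A_52_P558401, did pass in ATF6aKO (-1.24, SE 0.27, adjusted p = 0.035 over all probes).

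The counts within a knockout rested on single arrays, and the number called over all genes also changed when an array was left out. The median change of the replication and mitosis genes was then -1.58 to -1.08 in ATF6aKO, against -1.37 with all arrays. In ATF6bKO their median was -1.97 to -1.58, against -1.77 with all arrays. In ATF6aKO the number that fell was 2 without UT replicate 1, 6 without UT replicate 2, 16 without DSS replicate 1 and 3 without DSS replicate 2, and 37 without either WT titled UT array. Aurkb and Cdt1 were the 2 genes that fell in ATF6aKO under every alternative. In ATF6bKO the number was 23 without DSS replicate 2 and 29 and 30 without UT replicate 1 and 2, and 19 genes kept their call under every alternative, among them Cdk1, Mcm2, Mcm6, Mcm7, Mki67 and Top2a. Scaling to the array median gave 1122 genes that fell and 482 that rose in ATF6aKO, against 808 and 673 here, and normexp gave 820 and 979 in ATF6bKO, against 1676 and 1325.

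The difference of the DSS change between the knockouts was tested directly. Of the 23210 genes 0 passed in limma's interaction contrast, with 1850 at an unadjusted p under 0.05. The median difference of the 49 genes, ATF6aKO minus ATF6bKO, was 0.43, against 0.10 over all genes. That median rested on single arrays, at 0.15 without ATF6aKO DSS replicate 1 and 0.64 without ATF6aKO DSS replicate 2. With normexp it was 0.12, against 0.03 over all genes. By the probes that represented the genes, Chek1 had the largest difference (1.40, SE 0.58, adjusted p = 0.592). It was the only one of the 49 with an unadjusted p under 0.05 by these probes. In ATF6bKO only 1 of the 2 DSS arrays had Chek1 above background. Its levels were -3.28 and -4.18 against -4.87 and -4.72 after DSS in ATF6aKO, and -3.18 and -3.23 against -5.18 and -6.14 in ATF6bKO. Cenpe was at 0.29 (SE 0.45) by the probe that represented it and at 1.82 (SE 0.72, adjusted p = 0.5998 over all probes) by probe A_51_P174192. The probes of Bub1 and of Tyms differed in sign. For the probes that represented the genes, standard errors of 0.24 to 0.62 mean that differences of this size could not be resolved at this number of arrays.

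Replication and mitosis genes were then set beside each other on each array, as the mean over the class of the level minus the mean of the untreated arrays of that genotype. Mitosis genes fell further than replication genes on 3 of the 4 knockout DSS arrays, by 0.73 on ATF6aKO DSS replicate 2 and by 0.49 and 0.59 on the ATF6bKO DSS arrays. On ATF6aKO DSS replicate 1 the 2 classes stood at -1.04 each. The classes of untreated knockout arrays differed by -0.13 to 0.13. The 2 ATF6aKO DSS arrays thus differed in mitosis genes and hardly in replication genes: all 29 mitosis genes were higher on replicate 1, by a median of 0.81, and replication genes by a median of 0.06, against -0.02 over all genes. On the ATF6bKO DSS arrays replicate 1 was higher by 0.49 for mitosis and 0.26 for replication genes. These class values are a description without a test, since genes are not replicates of a condition.

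**Figure D4:**
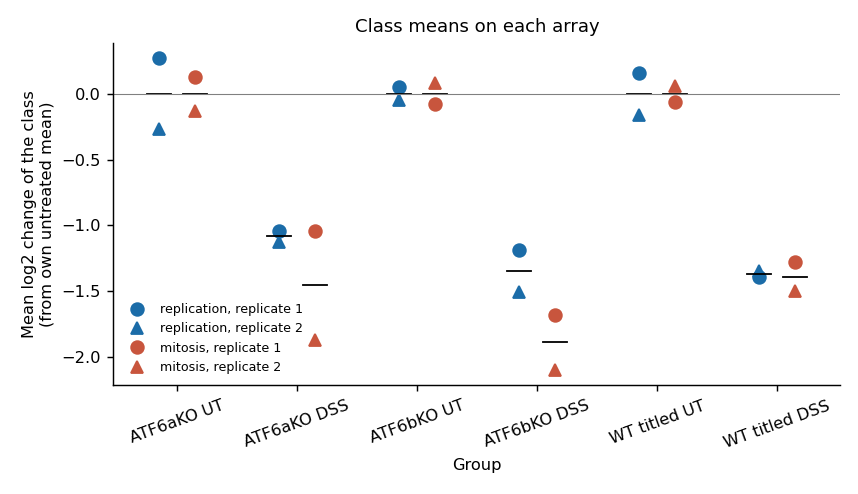
Mean over 20 replication genes (blue) and 29 mitosis genes (red) of the log2 change from the untreated mean of the genotype, on each array (circle, replicate 1; triangle, replicate 2; bar, mean of the 2 arrays). Mitosis points lie below replication points on ATF6aKO DSS replicate 2 (-1.87 and -1.13) and on both ATF6bKO DSS arrays (-1.68 and -1.19, -2.10 and -1.51), and not on ATF6aKO DSS replicate 1 (-1.04 and -1.04).

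Between the WT groups, 37 of the 49 genes were lower and 0 higher in titled DSS than in titled UT, against 17.0% and 14.8% of all genes, with a median difference of -1.41. By the treatment fields of the same samples the sign would be the opposite. The classes were closer here, with 17 of 20 replication genes lower (median -1.53) and 20 of 29 mitosis genes (median -1.33), and on the titled DSS arrays the class means differed by 0.11 and -0.15, within the range of the titled UT arrays (-0.22 and 0.22). The largest difference was that of Nusap1, a protein that stabilises spindle microtubules, with 2.23 and 1.70 in titled UT against -0.81 and -1.15 in titled DSS (-2.95, SE 0.34, adjusted p = 0.00177). The helicase genes Mcm6 (-1.41, SE 0.20) and Mcm7 (-1.84, SE 0.19) were lower as well, with 4.22 and 3.79 in titled UT against 2.59 and 2.62 for Mcm6 and 3.21 and 3.01 against 1.22 and 1.32 for Mcm7. Mki67 had 4.71 and 4.32 against 2.55 and 2.33 (-2.08, SE 0.29). Of the cyclins, mitotic kinases and Foxm1 only 3 of 8 passed, Ccna2, Ccnb1 and Cdk1, and the median of the 8 was -0.72. Without titled DSS replicate 2 the number lower was 22, and without titled DSS replicate 1 it was 25; a fit of the WT arrays alone gave 15.

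Single genes differed between the WT titled groups and the knockouts. In a contrast of the WT titled difference minus the mean DSS change of the knockouts, chosen after the values of the groups had been seen, 4 of the 49 genes were higher and 3 lower, against 10.3% and 9.60% of all genes, so the share was near the background or below it. These counts hold only for the WT sign by title. With the sign of the treatment fields the contrast would be another one, which was not tested. WT and knockout arrays also lay on different slides. Aurkb had -1.63 and -1.58 in WT titled UT and -1.77 and -2.09 in titled DSS (-0.32, SE 0.25), against its fall of 2.05 over the knockouts, and the difference was 1.73 (SE 0.31, adjusted p = 0.0109). Cdt1 had 1.0 and 0.76 against 0.67 and 0.75 (-0.17, SE 0.17), and the difference was 1.41 (SE 0.21, adjusted p = 0.00745). In both genes the WT titled UT arrays already lay below all untreated knockout arrays, and these 2 calls held under all alternatives. Rfc4 went the other way, with 3.22 and 2.02 in titled UT against 0.31 and 0.17 in titled DSS (difference -1.39, SE 0.41, adjusted p = 0.045), as did Pcna, with 5.21 and 4.50 against 3.08 and 3.24 (-1.03, SE 0.32, adjusted p = 0.04995). The 2 titled UT arrays were over a log2 unit apart for Rfc4. Calls of Rfc4, Pcna, Bub1, Espl1 and Foxm1 were lost under at least 1 alternative. Cdc6 did not pass by the probe that represented it (0.87, SE 0.33), but did by probe A_52_P219473 (1.65, SE 0.27, adjusted p = 0.00889 over all probes). Of the Bub1 probes only 1 passed, and the Top2a probes were over 1 log2 unit apart.

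**Figure D5:**
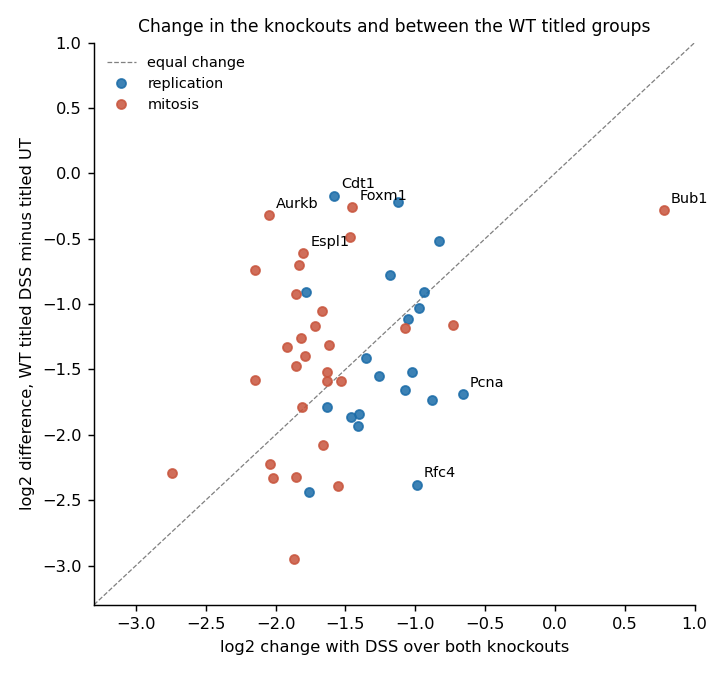
Log2 change with DSS over both knockouts (x axis) against the log2 difference WT titled DSS minus titled UT (y axis) for 20 replication genes (blue) and 29 mitosis genes (red), with the line of equal change dashed. By the treatment fields of the WT samples the sign on the y axis would be the opposite. The 7 named genes passed the test of the difference; Aurkb (-2.05 and -0.32) and Cdt1 (-1.58 and -0.17) lie far above the line, and Rfc4 (-0.99 and -2.38) below it.

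Other genes of the same pathways, on lists that hold none of the 50, moved alongside. Of 36 other DNA replication genes 34 fell over both knockouts and 0 rose, with a median of -0.89, and the largest falls were those of Clspn, a checkpoint adaptor at the fork (-2.06, SE 0.29, above background on 2 of the 4 DSS arrays), and Uhrf1, which maintains DNA methylation (-2.03, SE 0.16). Of 48 other mitosis genes 47 fell, with a median of -1.68, led by the spindle pole gene Aspm (-2.47, SE 0.34, likewise on 2 of the 4) and Ckap2 (-2.45, SE 0.27). Of 20 G1 cyclin, CDK, E2F and Myc genes 14 fell and 1 rose. The atypical E2F repressors E2f8 and E2f7 fell by 2.02 (SE 0.20) and 1.70 (SE 0.20), and Ccnd2, cyclin D2, rose by 0.67 (SE 0.13, adjusted p = 0.0105). Of 17 CDK inhibitors and growth arrest genes, which hold the cycle back, 0 rose and 4 fell (6 had an unadjusted p under 0.05 in limma's test), namely Gadd45g (-0.87), Cdkn2c (-0.56), Tob1 (-0.56) and Cdkn1b (-0.49), which encodes p27. The median of that list was -0.20. For all of these lists the background was 15.8% of all genes that fell and 13.3% that rose, and the counts of the CDK inhibitor list were near it.

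Markers of other cells moved too. Of 13 crypt base and Wnt target genes 9 fell and 1 rose, with Lgr5, the stem cell receptor, at -4.40 (SE 0.17, above background on 2 of the 4 DSS arrays) and Axin2 at -3.43 (SE 0.14). Of 12 general epithelial genes 4 rose and 0 fell (6 had an unadjusted p under 0.05 in limma's test), with a median of 0.24, and their mean level per array was 5.73 to 5.90 in untreated and 5.96 to 6.05 in DSS knockout colon. Markers of cells that enter or surround the epithelium were higher: 8 of 8 neutrophil, 8 of 9 macrophage, 9 of 11 T and NK cell, 9 of 9 fibroblast and 6 of 7 endothelial genes rose, whereas 0 of 9 B cell genes (6 at an unadjusted p under 0.05 in limma's test) and 0 of 8 smooth muscle genes (2) passed. Neutrophil genes had mean levels of -5.21 to -4.24 on untreated knockout arrays, of -2.51 to -2.02 in ATF6aKO DSS and of -0.94 to -0.68 in ATF6bKO DSS. Their part in the change of the division genes was not tested. Of the goblet cell genes 2 of 7 fell, and of the differentiated colonocyte genes 2 of 11 fell and 1 rose, beside 15.8% and 13.3% of all genes. In the WT titled DSS arrays the neutrophil mean was -4.83 to -3.60, against -5.01 to -4.75 in titled UT, so the ranges overlapped, and 1 of the 8 genes was higher by the test, beside 14.8% of all genes. Of the 13 crypt base and Wnt target genes 4 were lower and 2 higher in titled DSS, beside 17.0% and 14.8% of all genes, Lgr5 (-3.68, SE 0.24) and Axin2 (-1.20, SE 0.36) being among the lower.

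Between genotypes, averaged over both treatments, 11 of the 49 genes were lower and 1 higher in ATF6aKO than in WT, against 20.6% and 14.7% of all genes, and 14 were lower and 0 higher in ATF6bKO, against 15.6% and 13.8%. Mad2l1 differed most in both (-1.60, SE 0.35, and -2.11, SE 0.24). The higher gene was Bub1 by probe A_52_P259126 (0.95, SE 0.22), while its other probe was at -0.54 (SE 0.29) and did not pass. Probes differed in sign for Bub1 and Ccne1 in ATF6aKO, and for Bub1, Ccne1 and Cdc6 in ATF6bKO. Anln was lower in ATF6bKO by probe A_52_P512955 (-1.78, SE 0.26) and did not pass by A_51_P313896 (-0.14, SE 0.24). The 2 comparisons share the WT arrays, and genotype and slide cannot be told apart. Treatment was a term of these fits, by title for WT. With the WT labels turned the differences would stay the same, but their standard errors and the counts could change, which was not tested. The medians were -0.27 and -0.42 here and had the opposite sign in the authors' value table, at 0.39 and 0.23, where the median of all genes was 0.56 and 0.60. They kept their sign with the array median (-0.17 and -0.47) and with quantile normalization (-0.23 and -0.38). Relative to those medians of all genes the 49 genes stood at -0.20 and -0.39 here and at -0.18 and -0.37 in the value table. Of all genes called, 58.5% were lower in ATF6aKO here, against 12.2% in the value table and 38.5% with normexp, and 53.1% in ATF6bKO against 9.0% and 22.8%.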

How the data were processed

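Per the labels and file headers, the authors scanned the 12 arrays and quantified them with Agilent Feature Extraction (10.7.1.1 in the file headers). Scanner files, as deposited, hold intensities per spot: a processed signal with background already subtracted, and median spot and background signals. The deposited value table holds log2 values centred on each probe's mean (41267 of 41268 rows within 0.001); the sources used here do not give its scaling, and 8 of its 12 columns match a different sample's array. Those of WT match the opposite WT group, which would turn the sign of the WT difference, and the ATF6aKO replicates are exchanged within each group. Scanner files were taken as assigned, and the value table, its columns matched to arrays by their values, served as an alternative.

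Control and outlier spots were left out. Levels were log2 processed signal minus the array's log2 75th percentile. Probes well above background on both arrays of at least 1 group were kept (30428 of 41174). Accessions were named through the RefSeq table of GRCm38.p6 (25193 probes), and a gene's probe of highest mean level represented it, giving 23210 genes or transcripts, 14582 of them named. All 49 measured genes passed this filter, 46 on all 12 arrays and none through untreated groups alone. Differences were tested with limma 3.58.1 in R 4.3.3 (lmFit, eBayes, Benjamini-Hochberg, threshold 0.05), in 1 fit of 6 group means, except that the change over both knockouts and the genotype comparisons used 8 arrays each with genotype or treatment as a term. The fits were tested on simulated data. Normexp (offset 50) used the median signals, as the files hold no mean signal. Values on every array are given for the 2 genes of each role with the highest mean level (1 where a role has 2), for genes whose probes disagreed and for genes called against the majority; genes at the ends of a range are named too. Fold bounds used the lowest signal among probes well above background on the array. The genes, the lists and the tests were chosen with earlier results of these data known. Deviations of same-numbered replicates from their group means had correlations of -0.223 to 0.150 between groups, so the main fits did not pair samples by number. With 2 arrays a group these values cannot exclude such a pairing.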

Additional observations from a re-analysis of the deposited data

Results flagged for a closer look

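The WT titled difference and the mean DSS change of the knockouts differed by test in 7 of the 49 genes. Of these, 4 were higher and 3 lower, beside 10.3% and 9.60% of all genes, a share near the background or below it. The contrast was chosen after the values of the groups had been seen. WT was grouped by title, and with the WT signs turned, the comparison is another one and was not tested. The differences, WT titled minus knockouts, were 1.73 for Aurkb, 1.41 for Cdt1, 1.19 for Espl1, 1.19 for Foxm1, -1.03 for Pcna, -1.06 for Bub1 and -1.39 for Rfc4. The Bub1 value is that of probe A_52_P259126, and the other Bub1 probe differed by -0.42 (SE 0.46, adjusted p = 0.528). Cdc6 is not among the 7 by the probe that represented it, but its probe A_52_P219473 passed (1.65, SE 0.27, adjusted p = 0.00889).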

How the results depend on the processing

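The rise of Bub1 over both knockouts was lost under some alternatives. The fall over both knockouts was the most stable result, with 43 of 48 falls kept under all alternatives run on it. When any 1 of its 8 arrays was left out, 45 to 48 of the genes fell, their median was -1.80 to -1.48, and 3852 to 6637 genes were called in all, the lowest without ATF6aKO DSS replicate 1. Leaving out 1 of the 12 arrays gave 2 to 37 genes fallen in ATF6aKO (183 to 3460 of all genes called, medians -1.58 to -1.08), 23 to 47 in ATF6bKO (1089 to 5274, -1.97 to -1.58) and 22 to 37 lower in WT titled DSS (2980 to 10463, -1.48 to -1.36). The interaction had 0 to 83 genes called, 0 of these genes lower and medians of 0.15 to 0.64. Against WT, 5 to 14 of these genes were lower in ATF6aKO (5394 to 8226, -0.36 to -0.19) and 12 to 17 in ATF6bKO (4134 to 7047, -0.49 to -0.38). WT titled minus the knockouts had 0 to 7 lower (1025 to 9431, -0.13 to 0.14). With normexp the medians were -1.05 in ATF6aKO, -1.09 in ATF6bKO, -1.04 over both, 0.12 in the interaction and -0.23 for WT titled minus the knockouts, where 9 genes were lower and Ttk turned to -0.93; 1799 genes were called in ATF6bKO and 12353 between ATF6bKO and WT, where Cdc6 (0.46), Chek1 (0.02), Ttk (0.03) and Anln (0.06) changed sign. Without a filter on dim probes 694 genes were called in ATF6aKO, 15 of them among the 49, and 2382 in WT titled minus the knockouts, 0 of the 49 being lower. Fits of only the compared groups called 563 genes in ATF6aKO (3 of the 49), 1817 in ATF6bKO, 636 in WT (15 of the 49) and 4 in the interaction. Without the WT arrays the calls were 2912, 4617 and 4 in the interaction, which had 5 with quantile normalization and 2 with the array median. When probes were averaged per gene, Bub1 was -0.61 in ATF6bKO and -0.66 over both knockouts, and 1 gene was lower in WT titled minus the knockouts. With the value table, medians against WT turned to 0.39 in ATF6aKO (mitosis 0.15, Mcm4 0.66, Ndc80 0.09; 2 genes lower) and to 0.23 in ATF6bKO (replication 0.32, Mcm2 0.62; 5 lower of 10913 genes called). The cause was not tested, apart from the fewer arrays or more probes that some settings hold by construction. With the replicate number as a block, which the pairing check did not support, the genes fallen were 27 in ATF6aKO, 42 in ATF6bKO and 48 over both knockouts. Probes at background in DSS colon (Ttk, Anln) limit those genes to bounds.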
